A study of Mus musculus with 69 samples.

Results

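The comparison described here is that of primary microglia lacking Toll-like receptor 7 (Tlr7) with wild-type (WT) microglia, in cells from female mouse pups that had been given myelin. It rests on 6 of the 69 libraries of the series, 3 from Tlr7 knockout (KO) and 3 from WT cells, chosen by their labels for sex, genotype and treatment, and on all 14468 of 54532 listed genes that had enough counts to be tested. Per the labels, the KO cells carry the genotype TLR7:-/- and the cells of both groups were female, came from pups of postnatal day 1 to 3 and received myelin. No Cre driver, allele name or strain background is given for the KO, and the labels give neither the dose of myelin nor the time of exposure. They also do not say which pups or cultures each library came from, so the 3 libraries of a group may be cultures or technical replicates. The labels call the RNA nuclear, although the extraction kit named purifies RNA from whole samples. Libraries were made from the 3′ ends of mRNA, so that a level does not depend on gene length. The series asks how Tlr7 bears on differences between the sexes in demyelination, and its 24 microglia libraries form 8 groups of 3 by sex, genotype and treatment (myelin or its vehicle control, DMSO).

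TLR7 is an endosomal receptor that binds single-stranded RNA and guanosine-like ligands. Through the adaptor MyD88 it activates NF-kB, which drives cytokine and chemokine genes, and the factor IRF7, which drives type I interferon. Its gene lies on the X chromosome. Microglia are the resident macrophages of the brain, and myelin debris that they take up delivers cholesterol and lipids to their lysosomes, with the expression of genes that mark lipid-loaded, disease-associated microglia such as Spp1, Gpnmb and Apoe.

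The 6 libraries held 16.1 to 18.7 M counts each, within the 15.3 to 21.3 M of the 24 microglia libraries. All 16 genes of a microglia identity list were detected in them, yet genes of resting microglia were low. Tmem119, a marker of microglia in the adult brain, had 6.28, 7.61 and 8.83 CPM in the KO libraries, against 10.4, 7.25 and 8.905 CPM in the WT libraries, and Cx3cr1, the fractalkine receptor, had 0.989, 1.08 and 1.68 CPM in the KO libraries, against 1.397, 3.19 and 1.94 CPM in the WT libraries (in CPM, which are TMM-scaled counts). Xist, the RNA of the silenced X chromosome, was at 564, 534 and 538 CPM in KO and 492, 522 and 479.9 CPM in WT libraries and the Y-linked gene Ddx3y had at most 7 counts in any of them. KO library 1 stood apart from the other 2 KO libraries. On the second principal component of all 24 libraries it lay at 27.5, with the other KO libraries at -8.98 and -1.58 and the WT libraries at 15.4, 8.69 and 7.87. Summed markers of choroid plexus and ependyma were 665, 61.5 and 257 CPM in the KO libraries, against 285, 127 and 171 CPM in the WT libraries. Most of that sum was Ttr, which encodes transthyretin. Summed astrocyte markers were 125, 65.2 and 68.9 CPM in KO and 78.1, 79.4 and 66.5 CPM in WT libraries. Results that turn on KO library 1 are given with and without it.

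Across the transcriptome, many genes differed between KO and WT cells by small amounts. The loss of Tlr7 cannot be told apart here from strain background or culture, which the labels do not give. By edgeR's quasi-likelihood test at a Benjamini-Hochberg adjusted p under 0.05, 1053 genes differed (7.28% of those tested), 550 of them higher and 503 lower in KO. Scaling by library totals in place of TMM gave 429 higher and 815 lower. Without KO library 1 the test called 850 genes, 449 higher and 401 lower, and 746 of them were among the 1053. The median log2 fold change was 0.27 over the genes called higher and -0.25 over those called lower, beside 0.01 over all genes. A change of 1 or more on the log2 scale was reached by 47 genes called higher and 39 called lower. The share called grew with abundance, at 3.16% of 6147 genes under 10 CPM, 7.01% of 6444 genes from 10 to 100 CPM, 20.4% of 1786 genes from 100 to 1000 CPM and 46.2% of 91 genes of 1000 CPM or more. Among the last class, 34 genes were higher and 8 lower in KO. The KO and WT libraries did not overlap for 3274 genes, which is 22.6% of those tested.

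**Figure D1:**
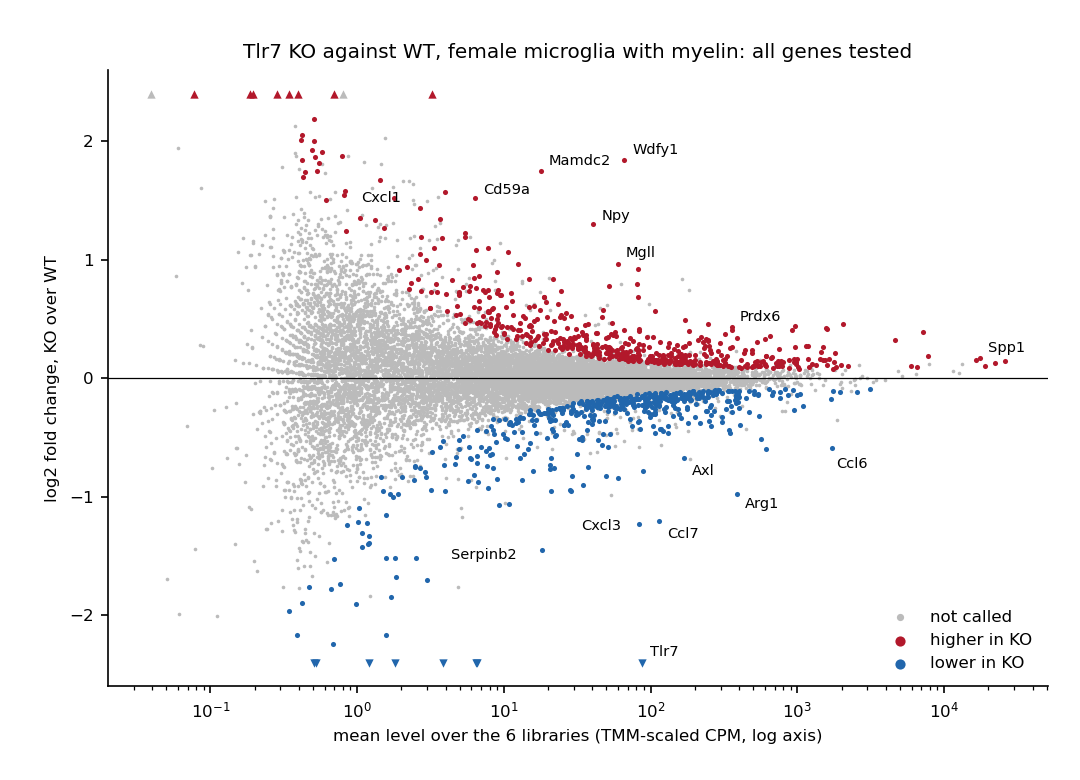
Log2 fold change of KO over WT libraries (y axis) against the mean level over the 6 libraries (x axis, TMM-scaled CPM, log axis) for 14468 genes. Red and blue points are the 550 genes called higher and the 503 called lower in KO, grey points were not called, and triangles at the edges mark genes beyond 2.4 on the log2 scale, among them Tlr7 at -6.24.

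Tlr7 itself (chromosome X, 167304929 to 167330558, GRCm38, minus strand, protein coding, ENSMUSG00000044583) had 42, 28 and 46 counts in the KO libraries, against 3132, 2680 and 2857 in the WT libraries. Scaled, this was 2.44, 1.59 and 2.76 CPM in the KO libraries, against 168, 167 and 179 CPM in the WT libraries, a log2 fold change of -6.24 ± 0.08 (SE; adjusted p = 6.37e-52). The groups stood far apart, and a low count remained in every KO library. Tlr8 (chromosome X, 167242696 to 167264329), which encodes a related RNA receptor and lies next to Tlr7, had 62.99, 75.6 and 75.4 CPM in the KO libraries, against 90.98, 96.1 and 89.9 CPM in the WT libraries. It fell by less (-0.37, adjusted p = 4.65e-07), with no overlap between the groups.

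Of 46 other genes tested within 10 Mb of Tlr7, 2 were called higher and 5 lower (15.2%, beside 7.28% over all genes). The higher ones were Sms (0.25), which encodes spermine synthase, and Car5b (0.85), a mitochondrial carbonic anhydrase. The call of Sms (KO library 2, adjusted p = 0.106 and WT library 1, adjusted p = 0.0542) was lost without those libraries. Among the lower ones, Mid1, which encodes a ubiquitin ligase bound to microtubules, had 1.05, 1.19 and 1.02 CPM in the KO libraries, against 12.3, 11.1 and 13.04 CPM in the WT libraries (-3.47, adjusted p = 4.86e-20). G530011O06Rik (-5.86), Gm15726 (-5.39) and Gm15247 (-2.16) lie within the span of Mid1 on the other strand, and whether the authors counted by strand is not given in the sources used here. They may share reads with Mid1, so the 15.2% may count 1 locus more than once. A near-identical copy on the Y chromosome, Mid1-ps1, was also lower (-3.58), so reads of Mid1 may be split between them. In the WT libraries, labelled female, Mid1-ps1 had 121, 158 and 77 counts, while the Y-linked gene Ddx3y had 0, 0 and 2. The counts of Mid1-ps1 are therefore not read as transcripts of a Y chromosome. Which of the genes on the X chromosome made the reads is uncertain. Whether they reflect the deleted locus, its flanking sequence or the regulation of these genes was not tested.

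Of 46 genes of the endosomal Toll-like receptor pathway, 9 were called lower, Tlr7 itself among them, and 2 higher (23.9%, beside 7.28% over all genes). Scaling by totals gave 15 lower and 2 higher, and leaving out KO library 1 gave 11 and 2. Besides Tlr7 and Tlr8, the receptor genes called lower were Tlr4 and Tlr1. Tlr3, Tlr9 and Tlr13 were not called (adjusted p = 0.558, 0.976 and 0.631). Of the genes that help fold receptors or bring them to the endosome, Unc93b1 was lower. Hsp90b1, Cnpy3 and Lrrc59 were not called (adjusted p = 0.966, 0.177 and 0.0959). Tlr4, the receptor of lipopolysaccharide, had 59.97, 65.5 and 66.7 CPM in the KO libraries, against 75.9, 83.2 and 84.9 CPM in the WT libraries (-0.34, adjusted p = 1.42e-06), and its co-receptor Cd14 had 167, 155 and 149.5 CPM in the KO libraries, against 207, 186 and 216 CPM in the WT libraries (-0.37, adjusted p = 1.00e-05). Unc93b1, the chaperone that carries TLR7 to endosomes, had 352, 355 and 348 CPM in the KO libraries, against 408, 398 and 411 CPM in the WT libraries (-0.21, adjusted p = 1.29e-06). In all 3 genes every KO library lay below every WT library. Tlr1, Pld4, Slc15a3 and Irf8 were also lower, by -0.31, -0.35, -0.27 and -0.14 on the log2 scale. The 2 genes that rose were Wdfy1 and Pld3. Wdfy1 (chromosome 1, 79702262 to 79776143), which encodes an adaptor reported to help TLR3 and TLR4 signal through TRIF, had 108, 102 and 100.3 CPM in the KO libraries, against 29.8, 27.8 and 29.2 CPM in the WT libraries. Its log2 fold change of 1.84 ± 0.05 (SE; adjusted p = 1.31e-34) was the highest among called genes with an ordinary symbol and at least 4 CPM in the higher group. The noncoding RNA Gm42031, at 0 in every WT library, stood apart from this ranking. Pld3, an endolysosomal exonuclease, had 1206, 1269.7 and 1294 CPM in the KO libraries, against 1138, 1114 and 1115 CPM in the WT libraries (0.16, adjusted p = 6.11e-06).

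Chemokine genes were lower in KO far more often than higher. Of 31 chemokines and chemokine receptors tested, 13 were lower and 1 was higher (45.2%, beside 7.28% over all genes). The same counts were found without KO library 1. Their median log2 fold change was -0.26, beside 0.01 over all genes tested. Their summed level was 6465, 6282 and 6375 CPM in the KO libraries, against 8019, 8160 and 8184 CPM in the WT libraries, with no overlap. Ccl6, the ligand with the second highest level in the list after Ccl9, had 1372, 1302 and 1436 CPM in the KO libraries, against 1999, 2158 and 2008 CPM in the WT libraries (-0.59, adjusted p = 4.66e-22). Pf4, a platelet chemokine that macrophages also make, had 461, 467 and 477 CPM in the KO libraries, against 654, 685 and 667 CPM in the WT libraries (-0.51, adjusted p = 5.08e-21).

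The monocyte chemoattractants Ccl2, Ccl7 and Ccl12, neighbours on chromosome 11 that act through the receptor CCR2, were all lower in KO. Ccl2 (chromosome 11, 82035571 to 82037453) had 493, 487 and 478 CPM in the KO libraries, against 716, 720.3 and 767 CPM in the WT libraries (-0.59, adjusted p = 2.81e-06). Ccl7 (chromosome 11, 82045712 to 82047525) had 76.7, 70.6 and 58.4 CPM in the KO libraries, against 153, 162 and 161 CPM in the WT libraries (-1.21, adjusted p = 4.35e-07). Ccl12 (chromosome 11, 82101845 to 82103400) had 6.98, 6.304 and 4.51 CPM in the KO libraries, against 11.9, 13.6 and 12.04 CPM in the WT libraries (-1.07, adjusted p = 0.00151). The KO libraries lay below the WT libraries in each of them, and for Ccl7 by a wide margin. Among receptors, Ccr1, which binds several CC chemokines, fell by 0.26 on the log2 scale.

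A second cluster, of neutrophil-attracting CXC chemokines and platelet factors on chromosome 5, held genes that moved in opposite directions. Both clusters were singled out after the values were seen. Cxcl3 (chromosome 5, 90786103 to 90789600) had 60.6, 48.2 and 40.8 CPM in the KO libraries, against 119, 99.1 and 133 CPM in the WT libraries (-1.23, adjusted p = 9.03e-06), and Cxcl2 (chromosome 5, 90903871 to 90905938) had 31.002, 22.8 and 20.6 CPM in the KO libraries, against 39.7, 33.2 and 42.5 CPM in the WT libraries (-0.63, adjusted p = 0.00544). Ppbp (chromosome 5, 90768518 to 90770063), which encodes a platelet basic protein, had 21.6, 27.3 and 23.4 CPM in the KO libraries, against 46.7, 44.2 and 43.9 CPM in the WT libraries (-0.90, adjusted p = 4.14e-08). All 3 were lower in every KO library than in any WT library. Cxcl1 (chromosome 5, 90891241 to 90893115), between them in the cluster, was low throughout and rose, with 4.89, 3.92 and 2.88 CPM in the KO libraries, against 1.07, 1.37 and 1.88 CPM in the WT libraries (1.44, adjusted p = 5.79e-05). In a fit of the 6 libraries alone Cxcl2 was not called (adjusted p = 0.196), and with the replicate number added to that fit neither Cxcl3 (0.172) nor Cxcl2 (0.0759) was.

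The promoters of 4 genes of this cluster are printed because neighbours of like sequence differed in direction. They run from 250 bases before to 50 after the start of the RefSeq transcript (GRCm38.p6, plus strand, chromosome 5, from 90768268 to 90768567 for Ppbp, 90785851 to 90786150 for Cxcl3, 90890995 to 90891294 for Cxcl1 and 90903649 to 90903948 for Cxcl2). Capitals mark matches to a core of the NF-kB motif, GGANNTTCC, in which N is any base, searched on both strands.
Ppbp: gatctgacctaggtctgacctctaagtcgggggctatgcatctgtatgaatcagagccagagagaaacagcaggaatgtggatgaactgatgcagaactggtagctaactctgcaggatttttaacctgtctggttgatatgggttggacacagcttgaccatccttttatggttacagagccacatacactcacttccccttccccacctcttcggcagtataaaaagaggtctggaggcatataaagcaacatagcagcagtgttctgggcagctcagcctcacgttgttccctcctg
Cxcl3: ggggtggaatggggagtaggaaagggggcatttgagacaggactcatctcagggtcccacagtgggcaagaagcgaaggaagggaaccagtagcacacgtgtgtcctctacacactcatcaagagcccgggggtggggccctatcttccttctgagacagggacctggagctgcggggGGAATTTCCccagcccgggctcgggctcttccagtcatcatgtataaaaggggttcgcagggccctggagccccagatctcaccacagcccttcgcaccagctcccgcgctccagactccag
Cxcl1: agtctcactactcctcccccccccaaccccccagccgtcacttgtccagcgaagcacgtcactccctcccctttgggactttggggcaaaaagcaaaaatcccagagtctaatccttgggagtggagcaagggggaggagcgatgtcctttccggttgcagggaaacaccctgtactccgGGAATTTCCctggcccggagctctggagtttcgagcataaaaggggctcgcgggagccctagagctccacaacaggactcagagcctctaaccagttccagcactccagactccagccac
Cxcl2: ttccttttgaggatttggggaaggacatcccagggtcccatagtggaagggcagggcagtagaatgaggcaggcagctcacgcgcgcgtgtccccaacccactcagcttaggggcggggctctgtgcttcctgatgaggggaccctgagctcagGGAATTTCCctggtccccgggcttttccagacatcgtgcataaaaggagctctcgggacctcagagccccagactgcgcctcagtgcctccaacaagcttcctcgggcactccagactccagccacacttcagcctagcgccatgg
The motif lies once in each of the promoters of Cxcl3, Cxcl1 and Cxcl2, and these letters are not in the window of Ppbp. It is found in 1399 of 32851 promoters (4.26%), in 576 of the 10345 tested genes with a promoter (5.57%) and in 6 of 24 genes of the chemokine list (25.0%). Cxcl3 and Cxcl2, which fell, and Cxcl1, which rose, share the match, which describes the sequence and does not show that a factor was bound.

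Cytokine genes moved both ways. In the list of NF-kB and cytokine response genes, 4 of 42 were higher and 10 lower (33.3%, beside 7.28% over all genes). This list shares Cxcl1 and 7 ligands that fell with the chemokine list. Il1b, which encodes interleukin 1 beta, was scarce and had 3.84, 2.73 and 1.502 CPM in the KO libraries, against 5.11, 5.75 and 4.77 CPM in the WT libraries (-0.95, adjusted p = 0.00818). Il1rn, which encodes the antagonist of the same receptor, had 750.1, 728 and 710.1 CPM in the KO libraries, against 581, 549 and 576 CPM in the WT libraries (0.36, adjusted p = 4.85e-08). Il1a rose by 0.20 and Csf1, a growth factor of microglia themselves, by 0.19 on the log2 scale. Tnf had 35.9, 28.7 and 27.04 CPM in the KO libraries, against 28.2, 28.2 and 33.1 CPM in the WT libraries, which overlapped (0.04, adjusted p = 0.879). The fit without a single library ended the calls of Il1b (KO library 3, adjusted p = 0.0959 and WT library 2, adjusted p = 0.0506) and Il1a (4 of the 6 libraries, adjusted p = 0.0563 to 0.185).

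Type I interferon response genes were mostly below WT without passing the test. Of 73 tested, 2 were called lower and 1 higher by edgeR (4.11%, beside 7.28% over all genes). At an unadjusted p under 0.05, 13 were lower and 1 higher, and DESeq2 called 3 lower and 1 higher. With library totals 4 were lower and 1 higher. The KO libraries lay wholly below the WT libraries for 35 genes and wholly above for 1, beside 22.6% for either direction over all genes. The median log2 fold change of the list was -0.30, and without KO library 1 it was -0.46, with 4 called lower and 1 higher. The summed level was 6678, 5849.8 and 5062 CPM in the KO libraries, against 7297, 6597 and 7575 CPM in the WT libraries, so that KO library 1 stood above WT library 2. Irf7, the interferon regulator downstream of TLR7, had 120.1, 94.3 and 71.7 CPM in the KO libraries, against 145, 122 and 154 CPM in the WT libraries (-0.56, adjusted p = 0.406). Isg15, a ubiquitin-like modifier, had 45.1, 27.5 and 19.5 CPM in the KO libraries, against 44.98, 34.9 and 47.5 CPM in the WT libraries (-0.47, adjusted p = 0.567). Ifit3, which binds viral RNA complexes and has a near-identical copy that may share its reads, had 72.2, 34.6 and 27.8 CPM in the KO libraries, against 62.5, 49.7 and 73.4 CPM in the WT libraries (-0.46, adjusted p = 0.624). Cxcl10, an interferon-induced chemokine, was near the limit of detection with 2.04, 1.36 and 0.721 CPM in the KO libraries, against 1.56, 1.9998 and 3.26 CPM in the WT libraries (-0.71, adjusted p = 0.316).

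The members called were Ifi27 (0.29), an interferon-induced protein of mitochondria and the nuclear envelope, which rose, and Gbp7 (-0.47) and Psmb8 (-0.18), a guanylate-binding protein and an immunoproteasome subunit, which fell. Both falls rested on single libraries, whose removal ended the calls of Gbp7 (KO library 3, adjusted p = 0.0894, WT library 1, adjusted p = 0.0948 and WT library 3, adjusted p = 0.0572) and Psmb8 (KO library 3, adjusted p = 0.0868 and WT library 3, adjusted p = 0.0663). The promoters of Ifit3 (GRCm38.p6 chromosome 19, 34583279 to 34583578, plus strand) and Isg15 (chromosome 4, 156200769 to 156201068, minus strand), from RefSeq, are shown as examples of a sequence that many of these genes hold. Capitals mark matches to a core of the interferon-stimulated response element, GAAANNGAA, searched on both strands, with overlapping matches run together.
Ifit3: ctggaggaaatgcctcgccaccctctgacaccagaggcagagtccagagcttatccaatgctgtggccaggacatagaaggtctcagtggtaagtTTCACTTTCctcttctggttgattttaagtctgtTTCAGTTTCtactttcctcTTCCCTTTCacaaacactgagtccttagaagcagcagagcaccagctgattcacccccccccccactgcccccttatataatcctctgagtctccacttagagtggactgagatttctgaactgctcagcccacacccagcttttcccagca
Isg15: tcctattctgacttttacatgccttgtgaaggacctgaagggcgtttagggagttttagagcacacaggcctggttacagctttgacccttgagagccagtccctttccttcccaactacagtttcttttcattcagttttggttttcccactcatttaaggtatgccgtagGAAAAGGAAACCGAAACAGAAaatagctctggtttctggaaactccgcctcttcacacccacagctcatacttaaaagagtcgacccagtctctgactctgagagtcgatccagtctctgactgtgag
This motif is in 2812 of 32851 promoters (8.56%), in 917 of the 10345 tested genes with a promoter (8.86%) and in 35 of the 58 tested genes of the interferon list with a promoter (60.3%), and it describes the sequence only.

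**Figure D2:**
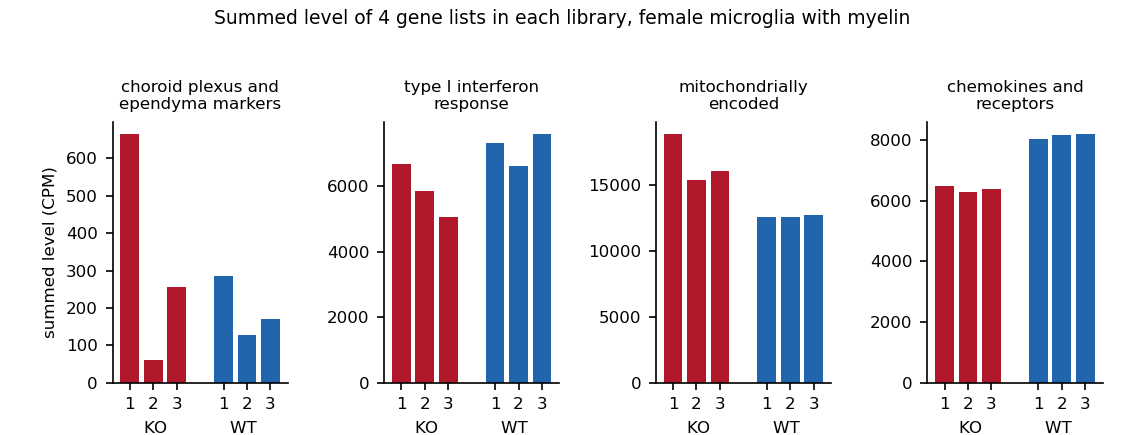
Summed level of 4 gene lists in each library (y axis, TMM-scaled CPM, from 0), with 1 bar per library and the KO libraries (red) left of the WT libraries (blue). The chemokine sums do not overlap, while KO library 1, at 6678 CPM of interferon response genes, lies above WT library 2 at 6597 CPM.

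The genes with the largest fold changes at 4 CPM or more, leaving out predicted genes, clone names and pseudogenes, had varied roles. After Wdfy1 came Mamdc2, which has been listed among genes of disease-associated microglia, with 28.3, 26.4 and 27.6 CPM in the KO libraries, against 8.22, 8.37 and 7.901 CPM in the WT libraries (1.75, adjusted p = 1.32e-22). Npy, which encodes neuropeptide Y, had 60.3, 61.1 and 52.04 CPM in the KO libraries, against 25.3, 20.2 and 24.6 CPM in the WT libraries (1.30, adjusted p = 4.65e-16). Mgll, the lipase that cleaves monoacylglycerols and the endocannabinoid 2-AG, had 78.99, 79.3 and 78.7 CPM in the KO libraries, against 42.9, 39.8 and 38.4 CPM in the WT libraries (0.97, adjusted p = 4.53e-19). The KO libraries exceeded every WT library in these 3 genes, and in the other genes named in this and the next paragraph the groups did not overlap either.

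Smaller in level but also higher in KO were Cd59a (1.52), a membrane inhibitor of complement, Rab4a (1.35), a GTPase of endosome recycling, and Hpse (1.10), heparanase, which cuts heparan sulfate. Npas4 (1.23) is a transcription factor known from active neurons. Col24a1 (1.20) encodes a fibrillar collagen, Nid1 (1.18) nidogen of the basement membrane, and Lox (0.96) an enzyme that cross-links collagen. Heph (1.06) encodes hephaestin, which oxidises iron for export. Fam189a2 (1.57), Scml4 (1.09) and Cnbd2 (1.10) completed the 15 named for the largest rise.

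Among the 15 genes of largest fall by the same limits, Arg1, which encodes the arginine-cleaving enzyme arginase 1, had the highest level in the WT libraries, with 259, 269 and 256 CPM in the KO libraries, against 505, 518 and 517 CPM in the WT libraries (-0.98, adjusted p = 1.04e-30). Serpinb2, plasminogen activator inhibitor type 2, had 11.9, 10.6 and 6.79 CPM in the KO libraries, against 27.9, 24.5 and 27.8 CPM in the WT libraries (-1.45, adjusted p = 3.82e-08). Tnfsf14, a cytokine of the TNF family, had 6.46, 7.89 and 6.73 CPM in the KO libraries, against 14.7, 13.3 and 16.2 CPM in the WT libraries (-1.06, adjusted p = 1.03e-09). Arg1 and Tnfsf14 stood at about the same level in all libraries of a group, and KO library 3 was the lowest for Serpinb2. Syt4 (-1.70), a synaptotagmin of vesicle traffic, Neurl3 (-0.95), a ubiquitin ligase, Ms4a4a (-0.94), a membrane protein of macrophages, and Cntnap1 (-0.95), a contactin-associated protein of axons, fell as well. Without 1 library the call of Cntnap1 (WT library 2, adjusted p = 0.0734) was lost.

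**Figure D3:**
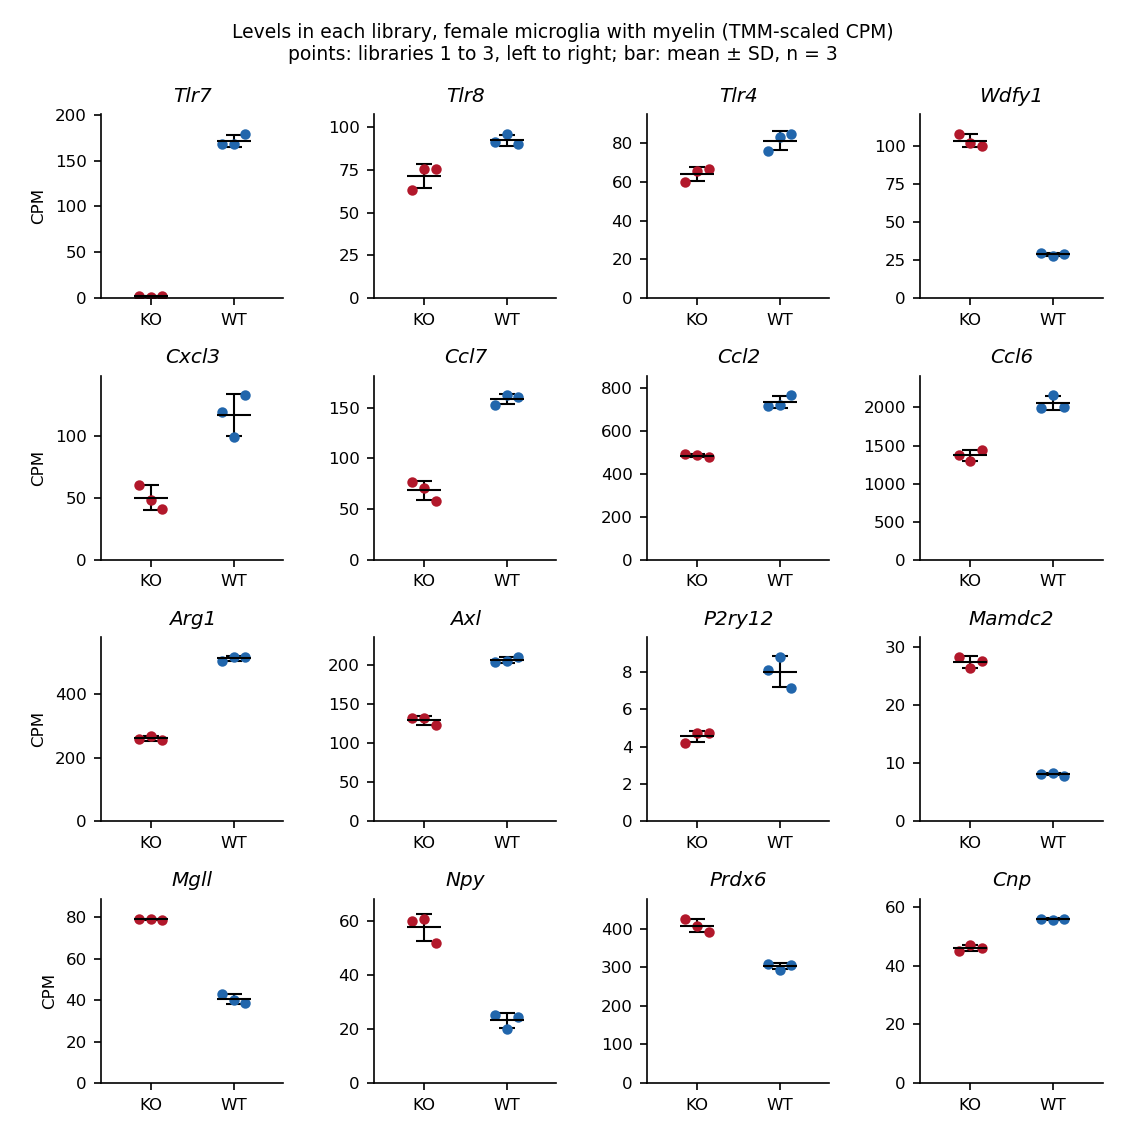
Level of 16 genes in each library (TMM-scaled CPM, axis from 0), KO libraries in the left column of each panel and WT libraries in the right, with 1 point per library and bars at the mean ± SD (n = 3). The libraries do not overlap in any of the 16 panels.

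Of 36 genes that mark disease-associated microglia, 19 were called higher and 4 lower, by small amounts (63.9%, beside 7.28% over all genes), with a median log2 fold change of 0.11. The same counts were found without KO library 1, and scaling by totals gave 17 and 6. Many of them are abundant. Of 18 members of 1000 CPM or more 9 were higher and 1 lower, beside 37.4% and 8.79% over all such genes, and of 10 members from 100 to 1000 CPM 7 were higher and 1 lower, beside 10.1% and 10.4%. Spp1, osteopontin, had 17875, 18519.8 and 19176 CPM in the KO libraries, against 15984, 17244 and 16219 CPM in the WT libraries (0.17, adjusted p = 8.88e-06), and Gpnmb, a lysosomal glycoprotein, had 22073, 24211 and 23532 CPM in the KO libraries, against 21296, 21164 and 21220.3 CPM in the WT libraries (0.13, adjusted p = 0.000594). Both are among the most abundant transcripts of these cells, and neither pair of groups overlapped. Trem2, the lipid receptor needed for the disease-associated state, had 543, 563 and 548 CPM in the KO libraries, against 508, 510.3 and 513 CPM in the WT libraries (0.11, adjusted p = 0.003). Further members that rose were Timp2 (0.31), Itgax (0.27), Apoc1 (0.41), Ctsd (0.19) and Igf1 (0.15). Apoe, the lipid carrier of these cells, had 11575, 11568 and 11822 CPM in the KO libraries, against 11233, 11149 and 11158 CPM in the WT libraries, which did not pass the test (0.06, adjusted p = 0.147). Lower were Ch25h (-0.76), which makes 25-hydroxycholesterol, Ccl6 (-0.59), Cd74 (-0.40) and Axl. Axl, a receptor that binds apoptotic cells and myelin debris through Gas6, had 132, 133 and 123 CPM in the KO libraries, against 203, 204 and 210.1 CPM in the WT libraries (-0.67, adjusted p = 4.86e-20). Single libraries decided the calls of Apoc1 (KO library 1, adjusted p = 0.0827 and WT library 1, adjusted p = 0.08) and Ch25h (KO library 3, adjusted p = 0.0753).

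Genes of resting microglia split, with 5 of 26 higher and 9 lower (53.8%, beside 7.28% over all genes). P2ry12, the purinergic receptor that steers microglial processes, had 4.19, 4.71 and 4.75 CPM in the KO libraries, against 8.11, 8.81 and 7.15 CPM in the WT libraries (-0.82, adjusted p = 6.27e-06). The ectonucleotidase Entpd1, which removes ATP and ADP, had 71.3, 73.8 and 70.2 CPM in the KO libraries, against 99.3, 97.3 and 92.6 CPM in the WT libraries (-0.43, adjusted p = 1.57e-10). Both fell without overlap, as did P2ry13 (-0.35), P2ry6 (-0.30), Maf (-0.32) and Csf1r (-0.10), the receptor of the survival factor CSF1. Among the higher ones were Fcrls (0.38), Gas6 (0.19), Cst3 (0.18) and Trem2. The purinergic members, 3 receptors and 1 nucleotidase, all fell, a grouping made after the values were seen. Removing a library ended the call of Csf1r (KO library 1, adjusted p = 0.0647, WT library 1, adjusted p = 0.0613 and WT library 3, adjusted p = 0.0644).

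Of 52 lysosomal genes, 13 were called higher and 1 lower (26.9%, beside 7.28% over all genes), and 17 and 1 without KO library 1. By abundance the share lay near that of all genes, since 8 of 17 members of 1000 CPM or more were higher and 0 lower, beside 37.4% higher over all such genes, and of 25 members from 100 to 1000 CPM 4 were higher and 1 lower, beside 10.1% and 10.4%. With scaling by library totals the counts were 10 and 2. Ctsd, a cathepsin that degrades proteins, had 8109, 8377 and 8460.3 CPM in the KO libraries, against 7131, 7554 and 7195 CPM in the WT libraries (0.19, adjusted p = 1.58e-08). Atp6v0d2, a subunit of the proton pump, had 629, 649 and 670.0 CPM in the KO libraries, against 574, 574 and 563 CPM in the WT libraries (0.19, adjusted p = 5.49e-05). Lipa, the acid lipase that frees cholesterol from its esters, rose by 0.16, and Cd68 and Psap by 0.11 and 0.10 on the log2 scale. The lower gene was Ctsc, which activates serine proteases, with 325, 326 and 324 CPM in the KO libraries, against 386, 379 and 381 CPM in the WT libraries (-0.23, adjusted p = 2.02e-06). The call of Cd68 (KO library 3, adjusted p = 0.0513 and WT library 2, adjusted p = 0.0872) depended on single libraries.

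**Figure D4:**
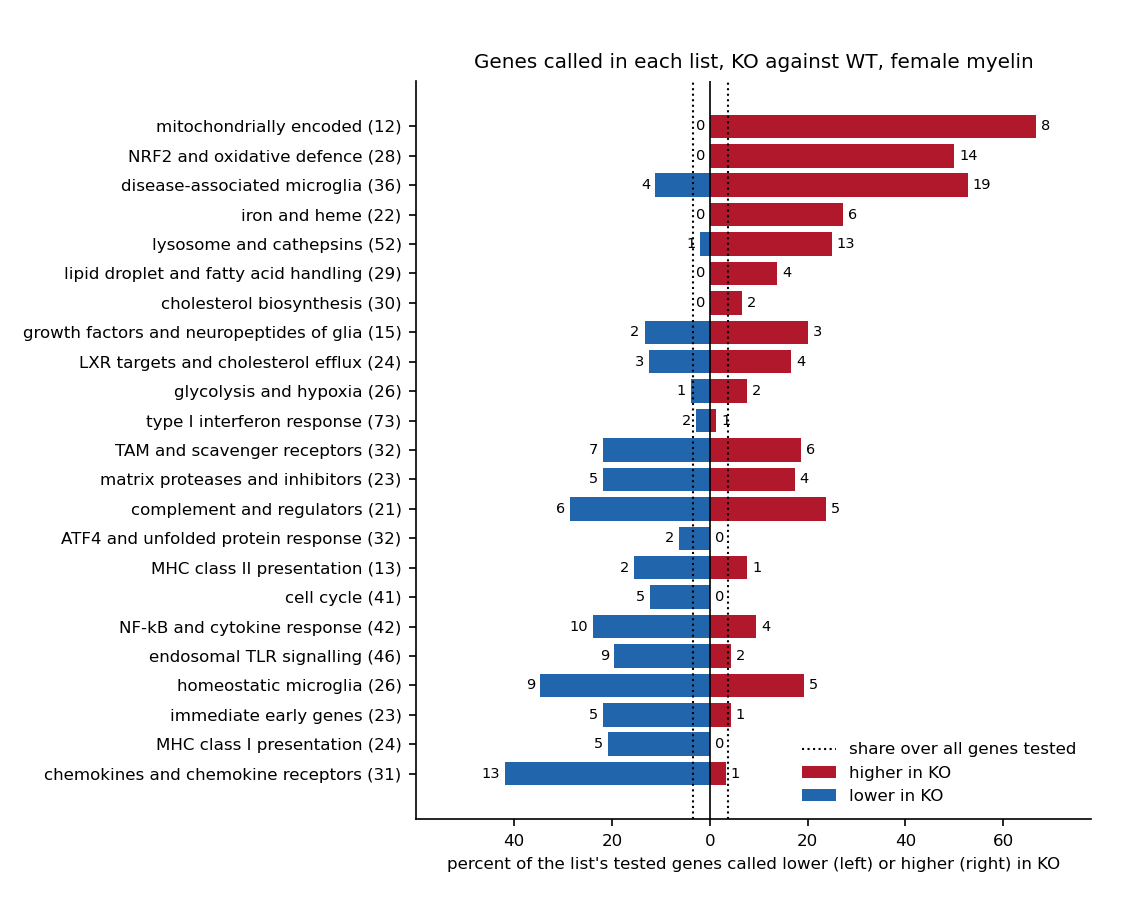
Percent of the tested genes of each list called higher (red, to the right) and lower (blue, to the left) in KO, with the number called at the end of each bar, the number tested beside each name and dotted lines at the shares over all genes tested. The chemokine list has 13 lower and 1 higher, the disease-associated list 19 higher and 4 lower, and the oxidative defence list 14 higher and 0 lower.

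Receptors for apoptotic cells and debris moved in both directions, with 6 of 32 called higher and 7 lower (40.6%, beside 7.28% over all genes). Higher were Itgb3 (0.66), an integrin that binds Mfge8-coated cells, Marco (0.37), a scavenger receptor, Havcr2 (0.26), which binds phosphatidylserine, and Mfge8 itself. Mfge8 had 1614, 1645 and 1593 CPM in the KO libraries, against 1401, 1326 and 1323 CPM in the WT libraries (0.26, adjusted p = 0.00788). Lower beside Axl were the mannose receptor Mrc1, with 249.9, 280.3 and 277 CPM in the KO libraries, against 343, 359 and 341 CPM in the WT libraries (-0.37, adjusted p = 2.60e-09), the scavenger receptor Msr1 (-0.12), Cd300lf (-0.19) and the Fc receptors Fcgr1 (-0.43), Fcgr2b (-0.27) and Fcgr3 (-0.12). Lost on the removal of a library were the calls of Fcgr1 (5 of the 6 libraries, adjusted p = 0.0588 to 0.154), Cd300lf (5 of the 6 libraries, adjusted p = 0.061 to 0.12) and Msr1 (KO library 3, adjusted p = 0.0533 and WT library 2, adjusted p = 0.092).

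In the complement list 5 of 21 genes were higher and 6 lower (52.4%, beside 7.28% over all genes). Of 8 members from 100 to 1000 CPM 2 were higher and 4 lower, beside 10.1% and 10.4% over all such genes. Both receptors of the fragment C5a were lower, C5ar1 with 264, 273 and 275 CPM in the KO libraries, against 348, 335 and 334 CPM in the WT libraries (-0.32, adjusted p = 1.46e-10) and the scarcer C5ar2 (-0.47). Properdin, encoded by Cfp, which stabilises the alternative convertase, had 245, 246 and 246 CPM in the KO libraries, against 297, 294 and 302 CPM in the WT libraries (-0.28, adjusted p = 3.72e-09). C1qa (-0.13), C1qb (-0.14) and C3ar1 (-0.14) were lower by small amounts, and C3 did not pass the test (-0.19, adjusted p = 0.247). Beside Cd59a, the genes called higher included the integrin chains Itgax (0.27), Itgam (0.14) and Itgb2 (0.12) of complement receptors 3 and 4. The call of C5ar2 (WT library 1, adjusted p = 0.0622) was lost without that library.

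MHC class I genes were lower where they passed the test, while class II genes moved both ways. In the MHC class I list 5 of 24 were lower and 0 higher by edgeR (20.8%, beside 7.28% over all genes). By DESeq2 or at an unadjusted p under 0.05, 0 were higher as well, and 8 were lower without KO library 1. Scaling by totals gave 9 lower. H2-K1, a class I heavy chain of a polymorphic family whose reads may be split, had 1053, 1015 and 962 CPM in the KO libraries, against 1213, 1148 and 1198 CPM in the WT libraries (-0.23, adjusted p = 0.00844). The peptide transporter Tap2 (-0.20), the trimming enzyme Erap1 (-0.20) and the proteasome genes Psmb8 and Psme1 (-0.18) were the others. In the class II list 2 of 13 were lower and 1 higher (23.1%). Cd74, the invariant chain, had 25.5, 22.2 and 22.8 CPM in the KO libraries, against 30.8, 30.6 and 31.4 CPM in the WT libraries (-0.40, adjusted p = 4.28e-06), H2-DMa (-0.50) fell and Ctss (0.10), the protease that removes the invariant chain, rose. Weakest in these lists were the calls of Tap2 (5 of the 6 libraries, adjusted p = 0.0641 to 0.101), Psmb8 (KO library 3, adjusted p = 0.0868 and WT library 3, adjusted p = 0.0663), Psme1 (4 of the 6 libraries, adjusted p = 0.0679 to 0.174) and Ctss (KO library 3, adjusted p = 0.0807 and WT library 2, adjusted p = 0.0842), each lost without those libraries.

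The share of lipid genes called differed by list, beside 7.28% over all genes. It was 6.67% for cholesterol synthesis, 29.2% for LXR targets and efflux and 13.8% for lipid droplets and fatty acids. These shares also depend on abundance. Of 9 droplet genes from 100 to 1000 CPM 2 were higher and 0 lower, beside 10.1% and 10.4% over all such genes. Of 10 LXR genes in that class 0 were higher and 2 lower. At 1000 CPM or more 0 of 3 droplet genes were called. Of 4 such LXR genes 2 were higher and 0 lower, beside 37.4% and 8.79% over all. Of 30 genes of cholesterol synthesis edgeR and DESeq2 called 2 higher and 0 lower (8 and 1 at an unadjusted p under 0.05), namely Cyp51 (0.41) and Dhcr7 (0.35). Dhcr7, which makes the last step to cholesterol, had 54.2, 59.3 and 58.6 CPM in the KO libraries, against 46.8, 42.9 and 45.7 CPM in the WT libraries (0.35, adjusted p = 2.51e-06). Of 24 LXR targets and efflux genes 4 were higher and 3 lower (3 and 5 with scaling by totals), and Abca1, the cholesterol exporter, had 886, 889 and 797 CPM in the KO libraries, against 972, 908 and 939 CPM in the WT libraries (-0.13, adjusted p = 0.433). Without KO library 1, 2 were higher and 3 lower. Pltp, the phospholipid transfer protein, rose by 0.53 (adjusted p = 0.0237). Of 29 genes of lipid droplets and fatty acids both tools called 4 higher and 0 lower (8 and 3 at an unadjusted p under 0.05), Mgll with Fabp3 (0.40), Fabp4 (0.32) and Acadl (0.16). Fabp4, a fatty acid carrier, had 268, 265 and 291 CPM in the KO libraries, against 223, 220.1 and 218 CPM in the WT libraries (0.32, adjusted p = 5.95e-08), while Plin2, the coat protein of lipid droplets, had 3844, 4121 and 3872 CPM in the KO libraries, against 3978, 3907 and 4042 CPM in the WT libraries (-0.01, adjusted p = 0.889). Scaling by totals gave 4 higher and 2 lower droplet genes and 2 higher and 1 lower synthesis gene. Left-out libraries ended the calls of Pltp (4 of the 6 libraries, adjusted p = 0.0542 to 0.118) and Acadl (KO library 2, adjusted p = 0.0705).

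Genes of oxidative defence were higher in KO wherever they passed the test. Of 28 NRF2 targets and related genes 14 were higher and 0 lower by edgeR, DESeq2 called 15 and 0, and 18 and 2 had an unadjusted p under 0.05. The median log2 fold change was 0.15, and 12 were higher without KO library 1. Scaling by totals gave 13 higher and 2 lower. Of 16 members from 100 to 1000 CPM 10 were higher and 0 lower, beside 10.1% and 10.4% over all such genes. Of 5 members of 1000 CPM or more 3 were higher and 0 lower, beside 37.4% and 8.79%. Prdx6, a peroxidase that also acts on phospholipids, had 427, 408 and 392 CPM in the KO libraries, against 308, 294 and 306 CPM in the WT libraries (0.43, adjusted p = 1.30e-13). Prdx1, the most abundant peroxiredoxin of the list, had 5099.8, 5076 and 5172 CPM in the KO libraries, against 4016, 3925 and 4301 CPM in the WT libraries (0.33, adjusted p = 1.77e-05). Gclm, a subunit of the enzyme that starts glutathione synthesis, had 204, 202 and 215 CPM in the KO libraries, against 159.8, 154 and 158 CPM in the WT libraries (0.40, adjusted p = 0.000156). No KO library overlapped a WT library in these 3 genes. Srxn1 (0.35), Cat (0.32), Txnrd1 (0.21) and Gsta3 (0.53), a glutathione transferase with close paralogs, were also higher. The call of Gsta3 (KO library 1, adjusted p = 0.12 and WT library 1, adjusted p = 0.0643) was lost without those libraries. Hmox1, the heme oxygenase that is also an NRF2 target, had 2950.3, 3019 and 2933 CPM in the KO libraries, against 2984, 3007 and 2918 CPM in the WT libraries (-0.00, adjusted p = 0.987).

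Of 22 iron and heme genes edgeR and DESeq2 called 6 higher and 0 lower (27.3%, beside 7.28% over all genes by edgeR). At an unadjusted p under 0.05 there were 10 and 2. Hp, haptoglobin, which binds free haemoglobin, had 73.2, 60.1 and 63.9 CPM in the KO libraries, against 39.2, 41.5 and 34.5 CPM in the WT libraries (0.78, adjusted p = 5.13e-07). Fth1, the ferritin heavy chain, had 28220.4, 26458 and 26938 CPM in the KO libraries, against 24788, 24089 and 25069.6 CPM in the WT libraries (0.14, adjusted p = 2.62e-05). Trf (0.25), transferrin, Slc48a1 (0.15), a heme exporter of the lysosome, Slc11a1 (0.10) and Blvrb (0.12) rose by less. Scaling by totals changed the counts to 4 higher and 2 lower, and 1 library at a time ended the calls of Slc11a1 (KO library 2, adjusted p = 0.164, KO library 3, adjusted p = 0.105 and WT library 2, adjusted p = 0.155) and Blvrb (KO library 1, adjusted p = 0.0727 and WT library 2, adjusted p = 0.15).

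Transcripts of the mitochondrial genome were higher in KO. Of 12 tested, 8 were called higher and 0 lower by edgeR (66.7%, beside 7.28% over all genes). The same counts came from DESeq2 and at an unadjusted p under 0.05. The median log2 fold change was 0.44, and 7 were higher without KO library 1, with a median of 0.34. Their summed level was 18849, 15398 and 16056 CPM in the KO libraries, against 12548, 12541 and 12697 CPM in the WT libraries. mt-Co1, subunit 1 of cytochrome oxidase, had 9119, 7490.4 and 7696 CPM in the KO libraries, against 6161, 6175 and 6229.7 CPM in the WT libraries (0.39, adjusted p = 0.000192). mt-Nd1, a subunit of complex I, had 2614, 2176 and 2319.7 CPM in the KO libraries, against 1703, 1722 and 1741 CPM in the WT libraries (0.46, adjusted p = 1.04e-05). KO library 1 was the highest of the 6 in both. In the fit of the 6 libraries alone mt-Cytb, mt-Nd2 and mt-Co1 were not called (adjusted p = 0.0964, 0.0969 and 0.107). Whether the level reflects the share of mitochondrial RNA that entered a library was not tested.

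In the cell cycle list 5 of 41 genes were lower and 0 higher (12.2%, beside 7.28% over all genes). Without KO library 1 the counts were 3 and 0. DESeq2 called 4 lower and 0 higher, and 8 were lower and 0 higher at an unadjusted p under 0.05. Ccnd1, cyclin D1, had 86.03, 93.8 and 87.6 CPM in the KO libraries, against 116, 123 and 115 CPM in the WT libraries (-0.40, adjusted p = 1.57e-10). The others were low in level, among them Top2a (-0.35), Mcm7 (-0.35) and Mcm4 (-0.27). These were lost without single libraries, as Top2a (KO library 1, adjusted p = 0.13, WT library 1, adjusted p = 0.171 and WT library 2, adjusted p = 0.0553), Mcm7 (KO library 2, adjusted p = 0.13, KO library 3, adjusted p = 0.0562 and WT library 2, adjusted p = 0.228) and Mcm4 (4 of the 6 libraries, adjusted p = 0.118 to 0.297). Among 23 immediate early genes 5 were lower and 1 higher (26.1%). Fos had 72.9, 78.6 and 73.3 CPM in the KO libraries, against 83.2, 80.5 and 90.2 CPM in the WT libraries (-0.17, adjusted p = 0.00783), Jun (-0.13), Ier3 (-0.29), Dusp1 (-0.26) and Klf6 (-0.10) were lower too, and Egr1 (0.39) was higher. Of these 6 calls, all depended on libraries in turn: Fos (WT library 3, adjusted p = 0.159), Jun (KO library 2, adjusted p = 0.0645, WT library 1, adjusted p = 0.157 and WT library 3, adjusted p = 0.087), Ier3 (KO library 3, adjusted p = 0.0544 and WT library 3, adjusted p = 0.0973), Dusp1 (KO library 3, adjusted p = 0.131), Klf6 (4 of the 6 libraries, adjusted p = 0.0758 to 0.261) and Egr1 (KO library 3, adjusted p = 0.188, WT library 1, adjusted p = 0.127 and WT library 3, adjusted p = 0.057).

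Of 23 matrix proteases and inhibitors 4 were higher and 5 lower (39.1%, beside 7.28% over all genes). Adamts1, a protease of proteoglycans, had 277, 289 and 286 CPM in the KO libraries, against 211, 199.7 and 209 CPM in the WT libraries (0.46, adjusted p = 3.97e-14), and Timp2, an inhibitor of metalloproteases, had 579, 582 and 592 CPM in the KO libraries, against 462, 486 and 466 CPM in the WT libraries (0.31, adjusted p = 1.87e-12). Thbs1, thrombospondin 1, had 289, 299.8 and 289.9 CPM in the KO libraries, against 396, 389 and 421 CPM in the WT libraries (-0.46, adjusted p = 0.00314), and Mmp14, a membrane protease, had 229, 219.6 and 203 CPM in the KO libraries, against 288, 278 and 272 CPM in the WT libraries (-0.36, adjusted p = 3.00e-08). Among 15 growth factors and neuropeptides tested, 3 were higher (Npy, Spp1 and Igf1) and 2 lower (Igfbp4 (-0.56) and Osm (-0.27)), a share of 33.3%. Of 32 genes of the unfolded protein response 2 were lower and 0 higher, a share of 6.25%, beside 7.28% over all genes. They were Pdia4 (-0.32) and Hspa5 (-0.09), both chaperones of the endoplasmic reticulum. Many genes of this list are abundant. Of 15 members from 100 to 1000 CPM 0 were higher and 2 lower, beside 10.1% and 10.4% over all such genes. DESeq2 called 3 lower and 2 higher (5 and 3 at an unadjusted p under 0.05). Of 26 glycolysis and hypoxia genes 2 were higher (Slc2a1 (0.20), the glucose transporter, and Egln3 (0.39)) and 1 lower (Hk3 (-0.11)), a share of 11.5%. Without KO library 1, 1 was higher and 0 lower. Of 13 glycolysis and hypoxia genes from 100 to 1000 CPM 1 was higher and 1 lower, beside the same 10.1% and 10.4%. With totals as the scale there were 1 higher and 3 lower glycolysis genes and 0 higher and 4 lower genes of the unfolded protein response. Calls that a single library could end were Osm (KO library 3, adjusted p = 0.0788 and WT library 3, adjusted p = 0.0688), Hspa5 (4 of the 6 libraries, adjusted p = 0.0585 to 0.232), Egln3 (6 of the 6 libraries, adjusted p = 0.0774 to 0.182) and Hk3 (KO library 1, adjusted p = 0.0766, WT library 1, adjusted p = 0.0727 and WT library 3, adjusted p = 0.174).

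Markers of other cells were measured because cultures and added myelin can carry their RNA. In bulk libraries, fewer cells of a type and less RNA per cell cannot be told apart. Of 22 genes of myelin and oligodendrocytes 6 were lower and 1 (Trf) higher (31.8%, beside 7.28% over all genes). Their median log2 fold change was -0.55, and the same counts were found without KO library 1. Mag, a myelin adhesion protein, had 7.97, 8.405 and 9.01 CPM in the KO libraries, against 11.4, 12.7 and 11.8 CPM in the WT libraries (-0.50, adjusted p = 0.00313), and Cnp, a phosphodiesterase of myelin, had 45.02, 47.1 and 46.03 CPM in the KO libraries, against 55.998, 55.5 and 55.9 CPM in the WT libraries (-0.28, adjusted p = 0.000164). Both were lower without overlap. Mbp, the most abundant of the list, had 613, 481 and 354 CPM in the KO libraries, against 445, 419.8 and 490.1 CPM in the WT libraries (0.10, adjusted p = 0.79), with KO library 1 the highest and KO library 3 the lowest of the 6. Summed over the list, the level was 1112, 821 and 667 CPM in KO and 832, 773 and 875 CPM in WT libraries. Whether these transcripts came with the added myelin or from cells in the culture was not tested.

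Among the other lists, Cspg4, a proteoglycan of oligodendrocyte precursors and pericytes, was the single member called in both of those lists, with 102, 106 and 99.8 CPM in the KO libraries, against 61.6, 58.4 and 56.7 CPM in the WT libraries (0.80, adjusted p = 1.83e-16), while Pdgfra, which also marks precursors, had 8.43, 7.04 and 5.83 CPM in the KO libraries, against 7.74, 7.44 and 7.15 CPM in the WT libraries (-0.07, adjusted p = 0.856). Cspg4 was 1 of 11 precursor genes and 1 of 10 genes of pericytes, smooth muscle and fibroblasts tested. The share over all genes, for these counts and those that follow, was 7.28%. Of 7 endothelial genes tested Flt1 (0.39) and Vwf (0.39) were higher, a share of 28.6%. Cldn5, Tek, Ly6c1 and Emcn had 0 counts in all 6 libraries. Of 14 astrocyte genes Sparcl1 (0.59) was higher and Aldh1l1 (-0.49) lower, a share of 14.3%, beside 7.28% over all genes. The call of Sparcl1 (KO library 1, adjusted p = 0.0534) was lost without that library and that of Aldh1l1 (4 of the 6 libraries, adjusted p = 0.0564 to 0.408) without those. Ttr had 459, 41.7 and 183 CPM in the KO libraries, against 203, 81.9 and 121 CPM in the WT libraries (0.74, adjusted p = 0.698). Among 10 choroid plexus genes and 10 neuronal genes edgeR and DESeq2 called none, with 0 and 1 at an unadjusted p under 0.05. Of 10 genes of border-associated macrophages Folr2 (1.05) was higher, and Pf4, Mrc1 and Ms4a7 (-0.15) were lower, the last not without KO library 3 or WT library 1 (adjusted p = 0.175 and 0.212). Of 19 markers of monocytes, neutrophils and lymphocytes 7 had 0 counts, 13 had under 10 counts over the 6 libraries, and 4 were tested. Their summed level was 60.4, 67.4 and 56.5 CPM in KO and 70.1, 68.7 and 70.4 CPM in WT libraries. The one called was Itgal, an integrin chain of leukocytes, with 50.4, 56.4 and 46.8 CPM in the KO libraries, against 63.1, 60.2 and 63.5 CPM in the WT libraries (-0.28, adjusted p = 0.00057). The haemoglobin genes Hba-a1, Hba-a2, Hbb-bs and Hbb-bt were at 0.

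Whether the KO difference with myelin departs from that with DMSO was tested as an interaction over the female libraries. The fit did not pair libraries with myelin and with DMSO by their numbers. It was called for 133 genes (0.919% of those tested), 65 positive and 68 negative, and scaling by totals gave 54 and 88. The count was 41 with the levels of Ttr and Pdgfra as covariates, and 73, 84 and 75 without WT myelin library 1, WT myelin library 3 or WT DMSO library 1. Of the 550 genes called higher with myelin 33 had an interaction, and of the 503 called lower 32 had one. Neither these counts nor the signs are compared with those over all genes, since both the choice and the interaction used the female myelin libraries. Cd83, a membrane protein of activated antigen-presenting cells, had 26.1, 27.9 and 30.8 CPM in the KO libraries, against 17.8, 20.4 and 16.7 CPM in the WT libraries with myelin and 37.1, 44.6 and 41.6 CPM in KO against 38.2, 44.6 and 42.6 CPM in WT libraries with DMSO. Its KO difference was 0.63 with myelin and -0.02 with DMSO (interaction 0.65 ± 0.11, SE; adjusted p = 0.000149). Cd14 likewise was at 281, 264 and 277 CPM in KO and 241, 264 and 267 CPM in WT libraries with DMSO, where its difference was 0.09, against -0.37 with myelin (interaction adjusted p = 0.000487). For Arg1 the fall was -0.98 with myelin and -0.72 with DMSO (interaction adjusted p = 0.000775). Gpr84, a receptor of medium-chain fatty acids, was -0.47 with myelin and 0.44 with DMSO (interaction adjusted p = 0.00126). For Ppbp and Prdx6 the KO difference was smaller with myelin, at -0.90 and 0.43, against -1.42 and 0.67 with DMSO (interaction adjusted p = 0.0321 and 0.00541). No interaction call was made for Wdfy1 (1.88 with DMSO, interaction adjusted p = 0.925) or Ccl7 (-1.88, 0.0665), which does not show that they were equal.

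The same question was asked of sex, with males given myelin. The genotype-by-sex interaction was called for 942 genes (6.51% of those tested), 508 positive and 434 negative. Scaling by totals gave 621 and 269, leaving out female KO library 1 gave 625 genes in all, and the covariates Ttr and Pdgfra left 55. Levels of these markers moved with the male groups, since Ttr was at 5.74, 13.2 and 10.5 CPM in male KO and 199, 164 and 136 CPM in male WT libraries, and their part in the interaction was not tested further. Of the 550 genes higher in female KO 122 had an interaction, and of the 503 lower ones 117 had one. These counts are not compared with the 6.51% over all genes. Both the choice of the genes and the interaction used the female myelin libraries, which by itself raises the share. Cd93, a receptor of the innate immune system, had 61.01, 62.5 and 72.4 CPM in the KO libraries, against 111, 114 and 112 CPM in the WT libraries in females and 94.1, 96.9 and 96.2 CPM in KO against 83.5, 85.4 and 81.1 CPM in WT libraries in males. It was lower in female and higher in male KO cells (-0.78 and 0.20; interaction adjusted p = 1.70e-16). P2ry12 was -0.82 in females and -0.15 in males (interaction adjusted p = 0.0168), and Arg1 was -0.98 and -0.53 (2.18e-09). The fall of Cxcl3 and Axl was smaller in females, at -1.23 and -0.67, than in males, at -2.87 and -1.05 (interaction adjusted p = 0.000102 and 6.50e-06). Cxcl1 was 1.44 in females and 0.14 in males (0.02). Apoc1 was higher in female and lower in male KO cells (0.41 and -0.64; 8.03e-06). Oxidative defence members Prdx6 and Srxn1 were higher in females by 0.43 and 0.35, and in males by 0.17 and 0.14 (interaction adjusted p = 0.000505 and 0.045).

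**Figure D5:**
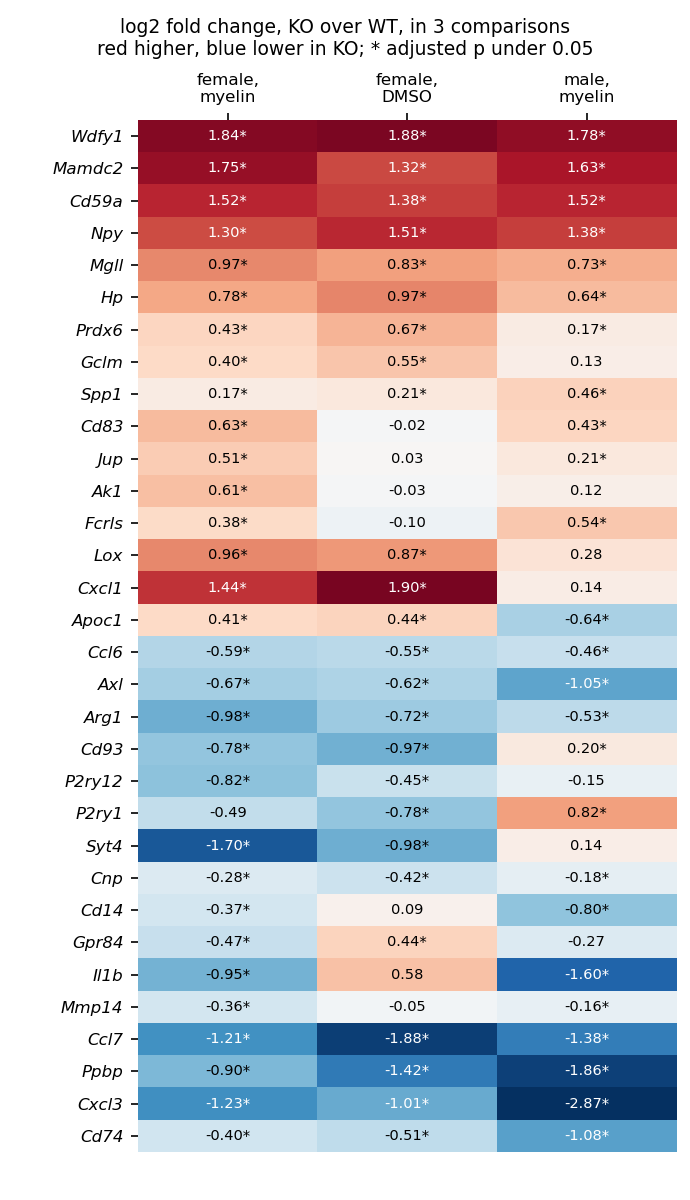
Log2 fold change of KO over WT for 32 genes in female cells with myelin, female cells with DMSO and male cells with myelin, red higher and blue lower in KO, with a star at an adjusted p under 0.05. Wdfy1, Mamdc2, Cd59a, Npy, Mgll, Ccl7, Arg1 and Axl have the same sign and a star in all 3 columns, while Cd83 is near 0 in females with DMSO and Cd93 has opposite signs in females and males with myelin.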

How the data were processed

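Primary mouse microglia were profiled with 3′ mRNA libraries (QuantSeq forward kit, per the labels' protocols). The authors deposited raw counts per gene, whole numbers with no scaling, and each column carries the name of its sample. The submitters' processing notes name the builds GRCm38 and mm10 and the tool DESeq2 1.38.3. For the aligner and for the counter with its strand setting, the sources used here name nothing. No molecular identifiers are stated, so floors of 3 counts cover counting error only.

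Counts of all 24 microglia libraries (15.3 to 21.3 M each) were filtered with filterByExpr, scaled by edgeR's TMM factors and modelled by 8 group means in edgeR 4.0.16 (robust quasi-likelihood, 2-sided tests, R 4.3.3), since 6 libraries alone leave few residual degrees of freedom. The common biological coefficient of variation was 0.0507. The call rule was a Benjamini-Hochberg adjusted p under 0.05 across the 14468 genes tested, and it also served the interactions of genotype with myelin and with sex. All adjusted p-values are from this test unless another tool or fit is named. Each SE was derived from the F statistic of the same test. Levels are TMM-scaled CPM. The test was checked on simulated counts. DESeq2 1.42.0, other scalings and filters, a replicate block, marker covariates and fits without each library were the alternatives. Within the female KO and WT groups with myelin, no 2 libraries agreed within sampling noise. The other groups were not checked for this. P-values measure the spread between libraries, which may be technical.

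Members and gene lists were chosen with earlier results of these data known, so lists are given by counts and medians with no set test. The text names 13 fixed genes, the 15 higher and 15 lower called genes of largest fold change with at least 4 CPM in the higher group, non-overlapping groups and an ordinary symbol, up to 4 called members of each list, called genes within 10 Mb of Tlr7, and up to 5 called genes per direction of each interaction. That came to 129 genes, and a further 62 list members were named after their values were seen. A few genes are not reported here. Promoter sequences are from RefSeq (GRCm38.p6).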

Additional observations from a re-analysis of the deposited data

Results flagged for a closer look

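These genes are listed because the KO difference in female cells with myelin departed from that in another group by a called interaction. Values in parentheses are interaction log2 values from edgeR at a Benjamini-Hochberg adjusted p under 0.05, the KO difference in females with myelin minus that in the group compared.

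Against females with DMSO, the difference was lower with myelin for Mid1-ps1 (-2.44), Arg1 (-0.26), Neurl3 (-0.48), Il1b (-1.53), Pilrb1 (-0.87), Gpr84 (-0.91), Entpd1 (-0.24), Arl4c (-0.19), Cd14 (-0.47), Fpr2 (-0.95), Mmp14 (-0.31), Pde4b (-0.87), Itgb2 (-0.21), Il1a (-0.35), Havcr2 (-0.33) and Prdx6 (-0.24). It was higher with myelin for Ppbp (0.52), Pf4 (0.16), Maf (0.21), C1qb (0.21), C1qa (0.15), Gas6 (0.26), Fcrls (0.48), Jup (0.48), Ak1 (0.63) and Cd83 (0.65).

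Against males with myelin, the difference was lower in females for Mid1-ps1 (-1.93), Syt4 (-1.84), P2ry1 (-1.31), Cyp4f18 (-1.05), Cd93 (-0.98), Itgb3 (-0.76), P2ry12 (-0.67), Arg1 (-0.45), Mrc1 (-0.44), Pld4 (-0.39), Vwf (-0.37), Entpd1 (-0.31), Timp2 (-0.31), Gas6 (-0.30), Spp1 (-0.29) and Ifi27 (-0.28). By less, the same held for Havcr2 (-0.27), Atp6v0d2 (-0.26), Ctsd (-0.24), Ccnd1 (-0.24), Arl4c (-0.24), P2ry6 (-0.22), Mmp14 (-0.21), Fabp4 (-0.19), Gpnmb (-0.19), Psap (-0.17), Trem2 (-0.16), Lipa (-0.16), Hspa5 (-0.14), Plin2 (-0.13) and Ccl6 (-0.13). It was higher in females for Cxcl3 (1.64), Sparcl1 (1.40), Cxcl1 (1.29), Cxcl2 (1.28), Apoc1 (1.05), Ppbp (0.96), Pdgfra (0.96), Fam189a2 (0.86), Fpr2 (0.81), Lox (0.69), Cd74 (0.69), Ak1 (0.49), Fos (0.45), Osm (0.44), Ier3 (0.44) and Cd14 (0.43). Smaller positive values were those of Csf1 (0.40), Cyp51 (0.38), Axl (0.38), Cspg4 (0.37), Il1rn (0.31), Itgax (0.31), Adamts1 (0.27), Prdx6 (0.26), Il1a (0.26), Psmb8 (0.22), Srxn1 (0.21), Txnrd1 (0.18), Pf4 (0.16), Slc48a1 (0.15) and Csf1r (0.13).

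The largest positive values came with low or marker genes. Ttr (4.80), Col1a2 (3.69) and Mmp3 (4.08) mark cells other than microglia or are made by them, and Ttr stood at 5.74, 13.2 and 10.5 CPM in male KO and 199, 164 and 136 CPM in male WT libraries. The sex-linked genes Xist (-3.73), Ddx3y (2.96), Eif2s3y (3.83) and Uty (4.44) are near 0 in 1 sex, as for Xist at 1.16, 1.25 and 1.52 CPM in male KO and 0.06499, 0.125 and 0.0627 CPM in male WT libraries, so that a few counts set the value.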

How the results depend on the processing

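The count of 1053 genes called for KO against WT was kept within 1.5 times by every alternative, from 767 to 948 without 1 of the 6 libraries, 987 with the 6 libraries alone, 1068 with DESeq2's size factors in edgeR, 1244 with library totals, 980 with DESeq2 and 1077 with Ttr and Pdgfra levels as covariates. The genotype-by-myelin count of 133 fell to 41 with these covariates and ran from 73 to 156 without 1 library. The genotype-by-sex count of 942 fell to 55 with the covariates and ran from 625 to 1326 without 1 library. Of 191 named genes, 191 kept their call and direction with DESeq2's size factors, 185 of 188 with DESeq2 and 166 to 174 without 1 library. Same-numbered KO and WT libraries deviated together by correlations of 0.163, 0.103 and 0.0227, the last below the limit of 0.1 set for pairs. The main fit did not take the numbers as pairs. Female KO libraries of the same number with myelin and with DMSO correlated more, at 0.442, 0.214 and 0.116. KO myelin library 2 and KO DMSO library 3 were at 0.277. Whether such libraries shared a culture is not in the labels, and the myelin interaction treated them as unpaired. A replicate block gave 1139 genes in the fit of 24 libraries and 1151 in that of 6, 177 for the myelin and 1115 for the sex interaction.

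Signs turned for values that were not called under that alternative. With the covariates the sex interactions of Ak1 (-0.15), Lox (-0.020) and Mmp3 (-1.06) and the KO difference of Hmox1 (0.0012) turned. Hmox1 also turned with a stricter filter (0.0041). Leaving out 1 library turned uncalled KO differences, which ran from -0.72 to 0.32 for Col1a2, -0.21 to 0.046 for Pdgfra, -0.12 to 0.27 for Mbp, -0.28 to 1.24 for Ttr and -0.12 to 1.81 for Mmp3. They ran from -0.10 to 0.12 for Tnf, -0.046 to 0.0044 for Plin2 and -0.016 to 0.0099 for Hmox1. For Mbp, Ttr and Mmp3 the library was KO library 1. The causes were not tested. Genes under 10 CPM were called least often, and at this depth differences there were detectable where large.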

Other observations

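Beyond a log2 fold change of 2.4, 8 genes were called higher and 8 lower in KO, and those that the rule for names did not reach were chosen after their values were seen. The long noncoding RNA Gm42031 (chromosome 8, 85125872 to 85132289) had 120, 107 and 107 counts in the KO libraries and 0 in each WT library, at least 111-fold higher against a floor of 3 counts over the WT group. 8030474K03Rik (chromosome X, 101794656 to 101798642) had 19, 13 and 9 counts in KO and 0 in each WT library, at least 13.7-fold higher by the same floor. Its neighbour Gm4779 had 12, 29 and 29 counts in KO and 0, 1 and 0 in WT libraries. In the other direction Gm16867 (chromosome 14, 69363504 to 69503362) had 0 counts in each KO library and 15, 26 and 10 in WT libraries. Ifi208, an interferon-inducible gene of the p200 family with close paralogs, had 0, 1 and 4 counts in KO and 47, 35 and 35 in WT libraries. Gpr37, a receptor of oligodendrocytes, had 2, 1 and 1 counts in KO and 15, 13 and 21 in WT libraries. Esr1, the oestrogen receptor alpha, had 11, 4 and 17 counts in KO and 1 in each WT library. Kcnj6, a potassium channel, had 10, 4 and 3 counts in KO and 0, 1 and 1 in WT libraries.

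A few counts of Y-linked genes were found in the female KO libraries. Ddx3y had 6, 7 and 5 counts in KO and 0, 0 and 2 in WT libraries, and Eif2s3y had 7, 9 and 11 in KO and 0, 1 and 1 in WT libraries. In male KO libraries with myelin Ddx3y stood at 72.2, 76.5 and 79.5 CPM, against 0.349, 0.398 and 0.3005 CPM in the female KO libraries.

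By chromosome, the share of tested genes called lay between 5.28% on chromosome 12 and 9.18% on chromosome 19, and it was 8.82% on the X chromosome, beside 7.28% over all genes.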
